A study of Mus musculus with 2 samples.

Results

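Interferon-induced genes are the antiviral and immune genes whose transcription is raised by interferons. They were examined here in Treg (regulatory T cells, a CD4 population that holds immune responses in check) from mice with a floxed Stat3 gene. The list held 39 mouse genes, and each was read by the probe sets that the platform annotation pairs with its symbol alone. By that rule 37 of the 39 had a probe set, of 18193 genes with such a probe set on the array. Where several probe sets read 1 gene, it was represented by the brightest of them, taken as the mean of both arrays. A gene is called measured below if that probe set reached a log2 signal of 5 in at least 1 array. In all, 36 of the 37 were measured, as were 53.7% of all genes on the array.

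The Treg were taken by flow sorting from lymph nodes and spleen; the donors were female, 6 to 8 weeks old. The data are 1 Affymetrix array per genotype. The fl/wt array came from mice labelled Foxp3 Cre/wtS with Stat3 fl/wt, so that 1 Stat3 copy can be deleted. The fl/fl array came from mice labelled Foxp3 Cre/wtS with Stat3 fl/fl, where both copies can be; the series' design text writes its Foxp3 genotype as Cre/wt. Both groups therefore carry the Cre allele, and neither is a Cre-free control. Cre was driven from the Foxp3 gene, which lies on the X chromosome, so in heterozygous females only the cells that use the Cre-bearing X delete the floxed allele. Whether the sort selected those cells, and how many mice gave each sample, is not stated in the labels. No treatment, infection or interferon stimulation is named for either group, so the values are resting levels as far as the labels go. The arrays have no replicates, hence no error estimate and no test, and every difference below compares these 2 arrays only. Differences are log2 signal in fl/fl minus log2 signal in fl/wt.

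As background, cells sense interferons through paired receptor chains that activate the kinases Jak1, Tyk2 and Jak2. Type I interferons (alpha and beta) then assemble a complex with Stat2 and Irf9 that binds the interferon-stimulated response element (ISRE) of its target promoters. Interferon-gamma, the type II interferon, acts on its targets through a gamma-activated site (GAS), a palindrome that Stat3 can bind. Many targets are expressed at a low level without infection, and T cells keep such tonic expression through basal interferon signalling. Stat3, which acts downstream of IL-6 and IL-10, has been described as a modulator of interferon responses.

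Promoter sequences are shown first because the ISRE is the feature by which this gene group is usually recognised. The rule for membership did not use the sequence itself. Genes listed as interferon-induced were likely to hold it, so its share among them is a description and no independent support. The stretches below end at the base before the transcription start in RefSeq (GRCm38.p6) and run 5′ to 3′ on the gene's own strand. Capitals mark matches to the ISRE pattern (GAAA, then any 2 bases, then again GAAA, or its reverse complement with TTTC in both places), and, in Irf1, the match to the GAS pattern TTCNNNGAA, which is its own reverse complement. Isg15 lies at chr4:156200819-156200938 on the minus strand, with 3 overlapping ISRE matches from base -78 on, counted from the start. Ifit1 (chr19:34640769-34640888, plus strand) and Ifit3 (chr19:34583359-34583528, plus strand) each have 2 separate matches. Rsad2 (chr12:26456453-26456592, minus strand) and Gbp2 (chr3:142620563-142620662, plus strand) have 1 each. Igtp (chr11:58199456-58199555, plus strand) has 1 ISRE match, at base -34, and also a GAS match at -45 that is not in capitals. Irf1 (chr11:53769894-53770013, plus strand) has no ISRE match in this window and a GAS match at base -90.
Isg15: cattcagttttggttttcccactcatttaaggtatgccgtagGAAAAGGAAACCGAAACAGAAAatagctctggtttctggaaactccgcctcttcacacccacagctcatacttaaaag
Ifit1: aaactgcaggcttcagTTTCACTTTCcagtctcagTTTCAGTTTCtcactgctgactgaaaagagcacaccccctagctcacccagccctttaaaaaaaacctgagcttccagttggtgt
Ifit3: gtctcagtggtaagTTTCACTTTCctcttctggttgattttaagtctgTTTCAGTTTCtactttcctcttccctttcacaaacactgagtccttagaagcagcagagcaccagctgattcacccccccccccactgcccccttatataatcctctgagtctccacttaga
Rsad2: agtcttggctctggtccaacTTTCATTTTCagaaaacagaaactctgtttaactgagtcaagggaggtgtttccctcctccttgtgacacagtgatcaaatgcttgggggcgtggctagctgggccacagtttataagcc
Gbp2: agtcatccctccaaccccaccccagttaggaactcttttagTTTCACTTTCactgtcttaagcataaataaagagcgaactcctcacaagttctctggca
Igtp: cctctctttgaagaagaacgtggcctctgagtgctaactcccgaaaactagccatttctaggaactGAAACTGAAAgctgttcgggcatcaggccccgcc
Irf1: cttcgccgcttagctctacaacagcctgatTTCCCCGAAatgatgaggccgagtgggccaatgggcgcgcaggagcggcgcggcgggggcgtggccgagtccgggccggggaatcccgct

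In the 250 bases before the start, 12 of the 29 members with a promoter entry held an ISRE match, which is 41.4%, against 3.46% of all 27025 genes in the RefSeq table. The 12 were Bst2, Gbp2, Gbp3, Gbp7, Ifit1, Ifit3, Igtp, Irgm1, Isg15, Oas3, Rsad2 and Trim30a. A GAS match was held by 8 of the 29 (27.6%), against 8.13% of all genes: Bst2, Eif2ak2, Gbp7, Ifit2, Igtp, Irf1, Isg20 and Samhd1. A gene with several listed starts counts as holding a motif if any of its windows does. Bst2, Gbp7 and Igtp held both patterns, and those of Bst2 overlap. The ISRE matches of the members all lay between base -156 and base -15. The members without an entry here were Usp18, Oas2, Mx1, Mx2, Ifi27l2a, Rtp4, Dhx58, Zbp1, Parp9 and Parp14. A match is a description of the letters in the window and not a measured binding site.

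**Figure D1:**
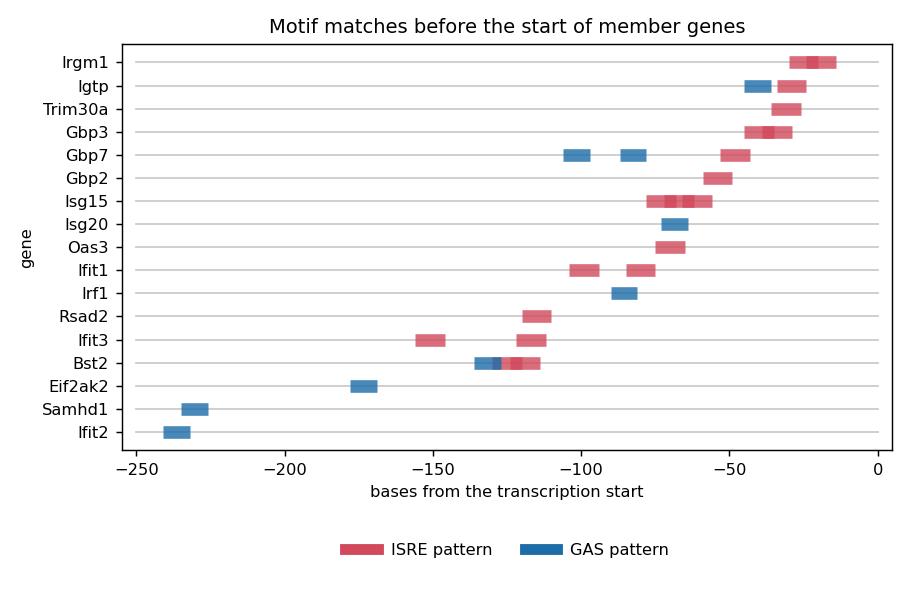
Positions of pattern matches before the start of the 17 members that held any; the x axis is bases from the transcription start, each row is a gene, red bars are ISRE matches and blue bars GAS matches. The ISRE matches sit between -156 and -15, while GAS matches run from -241 (Ifit2) to -37 (Igtp).

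The interferon-induced genes had measurable resting signal in both genotypes and differed little between them. All 36 measured members were over log2 5 in both arrays, with signals of 6.76 to 14.86 in the fl/wt array and 6.58 to 14.86 in the fl/fl array. Signals of different members are not set against each other here, since probe affinity differs. Of the 36, 19 were higher in fl/fl (52.8%, where 47.5% of all measured genes were higher) and 17 were lower. With each array centred on its median instead, the split was 24 higher and 12 lower (66.7%, against 53.2% of all genes). The median difference was 0.0022, beside -0.0045 over all 9773 measured genes. A difference under 0.1 was found for 29 of the 36 (80.6%), and for 73.2% of all measured genes. Only Mx1 passed 1.2-fold, 1 of 36 where 5.23% of all measured genes did, and no member passed 1.5-fold, as 0.645% of all genes did. These shares are near the background of the 2 arrays.

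**Figure D2:**
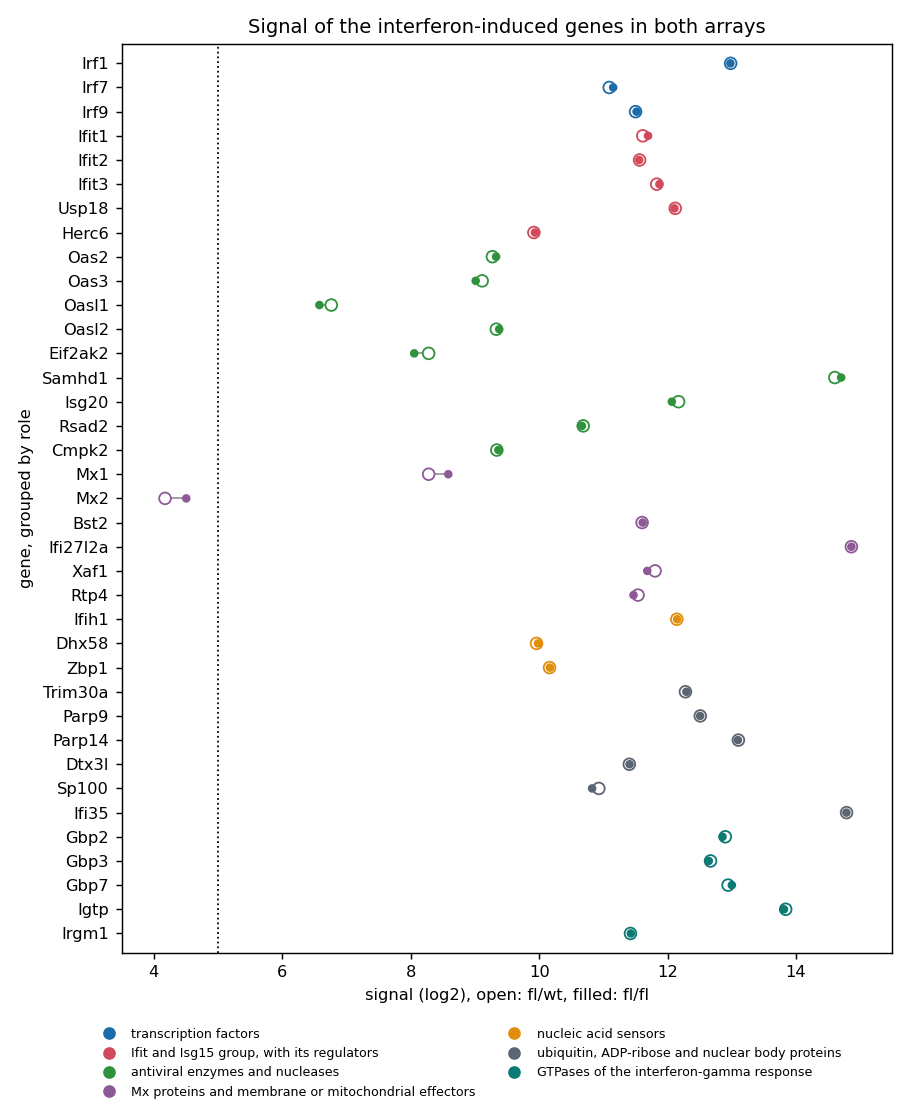
Log2 signal of the 37 interferon-induced genes with a probe set, by role; open circles are fl/wt, filled circles fl/fl, and the dotted line is log2 5. The circles of 36 genes lie over the line and nearly coincide, and Mx2 is the gene below it, where values have no order.

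Small differences depend on how bright a probe set is, so the members were also read within bands of mean log2 signal. Among the 24 members at 11 or more, 22 differed by under 0.1, and so did 92.5% of all genes in that band. The median size of the difference there was 0.015 for members and 0.032 for all genes. Among the 11 members from 8 to 11, 7 differed by under 0.1, where 70.3% of all genes did. The 4 that did not were Mx1, Eif2ak2, Oas3 and Sp100. Oasl1 was the only member under 8, and it differed by more than 0.1, while 43.7% of all genes in that band stayed under it. The bands were set with these values known.

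**Figure D3:**
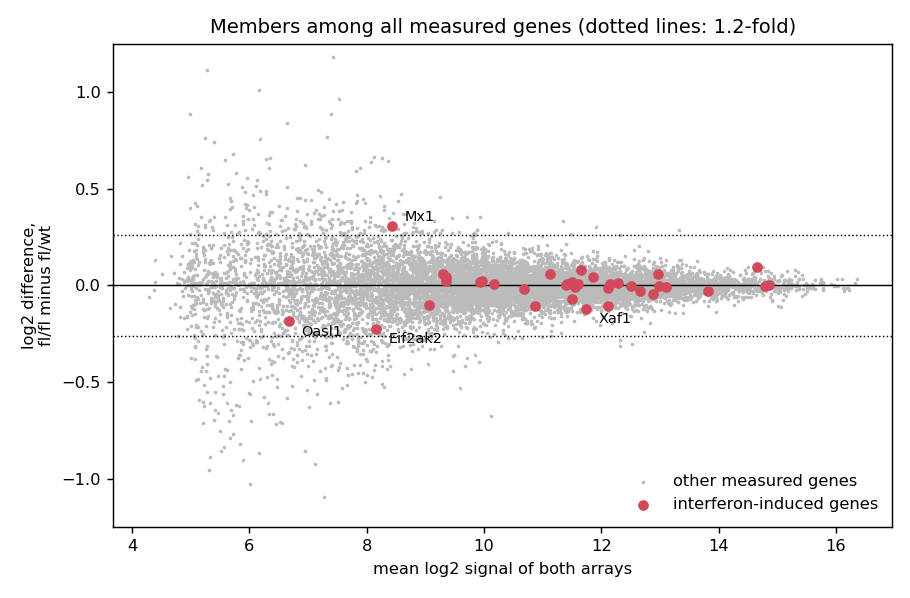
Difference of log2 signal (fl/fl minus fl/wt, y axis) against mean log2 signal of both arrays (x axis) for all 9773 measured genes in grey and the 36 measured members in red; dotted lines mark 1.2-fold. The grey cloud widens towards dim genes, and the members lie within it, with Mx1 the only member outside the lines.

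The transcription factors that carry or amplify the response were nearly equal. Irf1, an early target of interferon-gamma whose promoter is shown above with its GAS match, read 12.98 in both arrays, a difference of -0.0043. Irf7, the factor that drives the second wave of interferon-alpha transcription, read 11.09 in fl/wt against 11.15 in fl/fl, a difference of 0.061. Irf9, the DNA-binding partner of Stat2, read 11.50 and 11.52, a difference of 0.016. None of the 3 differed by 0.1, as was so for 92.5% of all genes at a mean of 11 or more. Each was read by a single probe set.

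Among the Ifit and Isg15 group, all 5 measured members also differed by under 0.1, where 73.2% of all measured genes did. All but Herc6 had a mean of 11 or more, a band where 92.5% of all genes did. The Ifit proteins bind foreign RNA and block its translation. Ifit1 read 11.61 in fl/wt against 11.70 in fl/fl (0.082), Ifit2 11.56 in both (-0.0067) and Ifit3 11.83 and 11.87 (0.041). Isg15, a ubiquitin-like modifier, had no probe set of its own. The probe set it shares with Gm9706 read 10.45 in fl/wt against 10.44 in fl/fl, a difference of -0.0032 that cannot be assigned to either gene. Usp18, which removes Isg15 from proteins and dampens the type I receptor, read 12.12 and 12.11 (-0.012). Herc6, a ligase that attaches Isg15, read 9.92 and 9.93 (0.016), while its dimmer probe sets differed by -0.17 (5.85 in fl/wt against 5.68 in fl/fl) and by -0.35 (5.62 and 5.27). The dimmer pair thus read lower in fl/fl and the bright probe set did not.

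Of the 9 antiviral enzymes, 5 differed by under 0.1, where 73.2% of all measured genes did. Oligoadenylate synthetases make the second messenger that activates RNase L. In this family Oas2 read 9.27 in fl/wt against 9.33 in fl/fl (0.057), and Oas3 read 9.11 and 9.01 (-0.10). The related Oasl2 read 9.33 and 9.38 (0.045), and Oasl1, an inhibitor of Irf7 translation, 6.76 and 6.58 (-0.18). The family therefore had no common direction, with a pair higher and a pair lower in fl/fl.

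Eif2ak2, the kinase PKR that halts translation when it meets double-stranded RNA, had the largest negative difference of any member, 8.28 in fl/wt against 8.06 in fl/fl (-0.22). Its second measured probe set went the opposite way, at 5.24 in fl/wt against 5.58 in fl/fl (0.34). Samhd1, which depletes deoxynucleotides, read 14.60 and 14.70 (0.097) on its brightest probe set, and its 4 others differed by -0.041 to -0.012. Isg20, an exonuclease of RNA, read 12.17 in fl/wt against 12.07 in fl/fl (-0.11). Rsad2, the radical-SAM enzyme viperin, read 10.69 and 10.67 (-0.019), and its neighbour Cmpk2, a nucleotide kinase, 9.34 and 9.37 (0.024). The second measured probe set of Rsad2 differed by 0.050.

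Mx1, a dynamin-like GTPase that blocks influenza virus, had the largest difference of the 36 members. It read 8.28 in fl/wt against 8.59 in fl/fl, a difference of 0.31 or 1.24-fold. A single probe set reads it, and its suffix marks probes shared between transcripts, so no second probe set checks this value, and with shared-suffix probe sets left out no member passes 1.2-fold. Most laboratory strains carry a defective Mx1 gene, and the strain here is not given in the labels. Mx2, its paralogue, was the only member with a probe set under log2 5 in both arrays, at 4.18 for fl/wt against 4.51 for fl/fl, too dim to be ordered.

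The 5 measured Mx proteins and membrane or mitochondrial effectors included 3 that differed by under 0.1, where 73.2% of all measured genes did. All but Mx1 had a mean of 11 or more, a band where 92.5% of all genes did. Bst2, the tetherin that holds budding virus at the cell surface, read 11.60 in fl/wt against 11.61 in fl/fl (0.0090). Ifi27l2a, a mitochondrial protein strongly induced by type I interferon, read 14.86 in both arrays (0.00020). Rtp4, a chaperone-like protein of receptors, read 11.54 and 11.47 (-0.071), with its other probe set at 0.075. Xaf1, a pro-apoptotic zinc finger protein, read 11.80 in fl/wt against 11.68 in fl/fl (-0.12), the largest size among the members at 11 or more. Its dimmer probe set read 6.94 and 7.30, a difference of 0.36 in the other direction. Ifi44 had no probe set paired with it here.

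On their brightest probe sets, all 3 cytoplasmic nucleic acid sensors were higher and differed by under 0.1. Of all measured genes, 73.2% differed by under 0.1 and 47.5% were higher. Ifih1, the long double-stranded RNA sensor MDA5, read 12.14 in fl/wt against 12.15 in fl/fl (0.0053). Dhx58, the related helicase that tunes it, read 9.96 and 9.98 (0.023). Zbp1, a sensor of Z-form nucleic acid, read 10.16 and 10.17 (0.0055), and its other probe set differed by -0.089.

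Of the 6 proteins of ubiquitin, ADP-ribose and nuclear body pathways, 5 differed by under 0.1, where 73.2% of all measured genes did. All but Sp100 had a mean of 11 or more, a band where 92.5% of all genes did. Parp9 and its ligase partner Dtx3l, which act together in DNA repair and antiviral signalling, read 12.51 in both arrays (-0.0023) and 11.40 and 11.41 (0.0041). The second probe set of Dtx3l differed by -0.066. Parp14, a mono-ADP-ribosyltransferase, read 13.10 and 13.09 (-0.0075), and its dimmer probe set 9.42 and 9.22 (-0.20). Trim30a, a regulator of innate signalling, read 12.28 in fl/wt against 12.29 in fl/fl (0.015), and its second probe set differed by -0.068. Ifi35, a partner of Nmi, read 14.79 and 14.78 (-0.0026) and its 3 probe sets stayed between -0.014 and 0.012. Sp100, a nuclear body component, read 10.93 and 10.82 (-0.10), and its second probe set differed by -0.0064.

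The 5 GTPases of the interferon-gamma response, which attack the vacuoles of intracellular pathogens, all differed by under 0.1. At a mean of 11 or more, as here, 92.5% of all genes differed by under 0.1. Gbp2 read 12.90 in fl/wt against 12.85 in fl/fl (-0.044), with its other probe set at 0.056. Gbp3 read 12.67 and 12.64 (-0.028), and Gbp7 12.94 and 13.00 (0.059), with its second probe set at 0.040. Igtp, whose promoter is shown above, read 13.84 and 13.81 (-0.027), and Irgm1 11.42 and 11.43 (0.0060). These family members are similar in sequence, and where their probes could cross-hybridise the signals cannot be told apart.

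Probe sets of the same member seldom pointed the same way. Of the 62 probe sets that read members, 55 were over log2 5 in both arrays, and 14 members had at least 2 of these. The 2 brightest had the same direction in 3 of the 14 (Gbp7, Parp14 and Sp100), which is 21.4%, where it was 50.4% over all 4227 genes read by more than 1 such probe set. The median distance between the extreme probe sets of a gene was 0.099 for members and 0.13 for all genes. The widest distance among members was 0.57, for Eif2ak2. Of the 31 bright member probe sets (mean 11 or more), 29 differed by under 0.1, with a largest size of 0.12. The 7 dim ones (mean under 8) ran from -0.35 to 0.36, and 2 of them were under 0.1 in size. Over all genes, on their brightest probe sets, the shares under 0.1 in these bands were 92.5% and 43.7%. In all, 4 member probe sets passed 1.2-fold: those of Mx1, Herc6, Eif2ak2 and Xaf1, and the last 3 were each dimmer than the probe set that stands for the gene. For 20 of the 36 measured members there was 1 probe set only, and for Cmpk2 and Dhx58 the others were under log2 5, so that no such comparison exists.

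**Figure D4:**
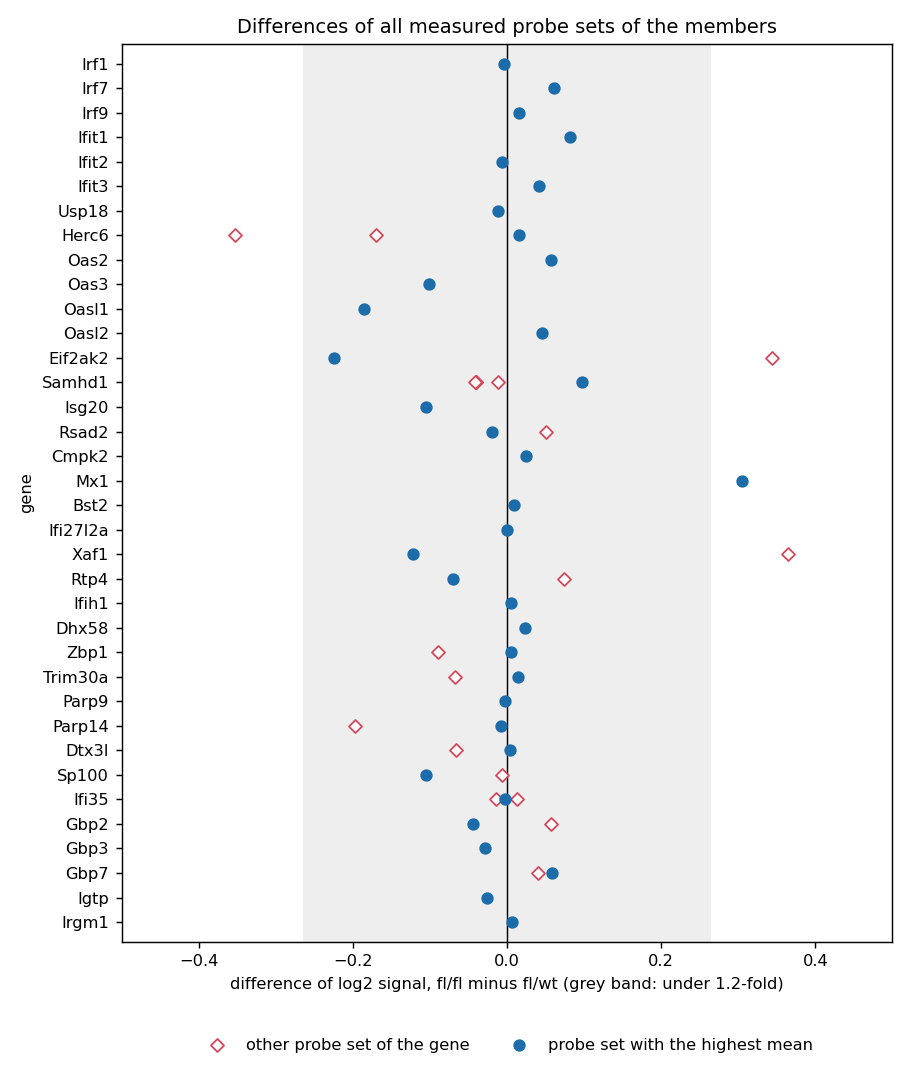
Difference of log2 signal (fl/fl minus fl/wt) for the 55 measured probe sets of the members, 1 row per gene; blue points stand for the gene, open red diamonds are its other probe sets, and the grey band is under 1.2-fold. The blue points cluster at 0, and Eif2ak2, Xaf1 and Herc6 each have a diamond outside the band on the opposite side from the blue point.

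Members that lie next to each other in the genome did not share a direction on their brightest probe sets. Neighbouring protein-coding genes in GRCm38.p6 were Ifit2 and Ifit3, Rsad2 and Cmpk2, Gbp7 and Gbp3, Oasl2 and Oasl1, Oas2 and Oas3, and the run of Parp14, Dtx3l and Parp9. In each of the 5 pairs 1 gene was higher and the other lower in fl/fl, and in the run only Dtx3l was higher. All of these genes but Oas3 and Oasl1 differed by under 0.1. The share of opposite directions over all neighbouring genes was not counted, so this describes these pairs only. With median centring Ifit2, Parp14 and Parp9 turned higher as well, by 0.0079 or less, and Parp9 did so with quantile normalisation too (0.0046). As the median of probe sets, Rsad2 (0.050) and Cmpk2 (0.019) were both higher, and Parp14 (-0.10), Dtx3l (-0.031) and Parp9 (-0.0023) were all lower. Nor was a direction seen by promoter pattern. The 11 measured members with an ISRE match had a median difference of 0.0060 (6 higher and 5 lower), and the 16 without had a median of 0.00076 (8 higher and 8 lower). The 8 with a GAS match had a median of -0.0055 (3 higher and 5 lower), beside 0.0053 for the 19 without (11 higher and 8 lower).

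Of the interferons themselves, 10 ligand genes had a probe set and 2 were measured. Ifng, which Treg and other T cells can produce, read 10.43 in fl/wt against 10.46 in fl/fl (0.022). Ifnz, an interferon zeta gene, read 6.64 and 6.93 (0.29, past 1.2-fold, on a single probe set). Ifnb1 and all 7 interferon-alpha family genes with a probe set were under log2 5 in both arrays.

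Receptors and signalling components had 19 of 20 measured, 9 higher and 10 lower in fl/fl, with a median of -0.0079, and none past 1.2-fold. Of all measured genes, 5.23% were past it. Ifnar1, a chain of the type I receptor, read 9.58 in fl/wt against 9.41 in fl/fl (-0.17), while its other probe set differed by 0.012. Its partner Ifnar2 read 11.79 and 11.78 (-0.0079). The interferon-gamma receptor chain Ifngr1 read 12.05 and 12.12 (0.070), and Ifngr2 6.62 and 6.49 (-0.13). Ifnlr1, the lambda receptor chain, was the one component under log2 5. The kinase Jak1 differed by 0.072 and Tyk2 by -0.020, and the other probe sets of Ifnar2 and Tyk2 were on the higher side. Stat2 read 6.83 in fl/wt against 7.04 in fl/fl (0.21), and its other probe set differed by 0.34 in the same direction. Irf2, which competes with Irf1, differed by 0.069, and Irf3, the factor that starts interferon-beta transcription, by 0.026, with its other probe sets from -0.14 to 0.062. The 3 Stat3 probe sets over log2 5 differed by -0.083 to -0.0083, and since their place relative to the floxed exons is not known, they do not check the deletion.

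Sensors and their signalling partners upstream of interferon had 12 of 14 measured, 6 higher and 6 lower, with a median of 0.0074. The largest differences were those of Tlr4 (0.27, past 1.2-fold, with its other probe set at 0.080), Tlr7 (-0.16) and Ddx58, the sensor RIG-I (-0.073), and the other probe sets of Tlr7 and Ddx58 lay on both sides of 0. A second list of interferon-induced genes that are not members had 75 of 82 measured, 36 higher and 39 lower, with a median of -0.0019. In that list 3 of the 75 measured genes passed 1.2-fold, where 5.23% of all measured genes did. Ifit1bl2 read 4.75 in fl/wt, under log2 5, and 5.61 in fl/fl, at least 1.53-fold higher. Slfn3 read 5.46 and 5.10 (-0.37), and Slfn1, like it of the Schlafen family, 10.03 and 9.68 (-0.36). Among genes linked to Stat3, 7 were higher and 9 lower (median -0.0079), and Fosl2 (-0.29), Ier3 (-0.17) and Il6ra (0.10) differed most. In these lists the second probe sets of Il10rb (0.33), Traf6 (0.30) and Cebpb (0.29) passed 1.2-fold while the brightest were slightly lower in fl/fl.

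**Figure D5:**
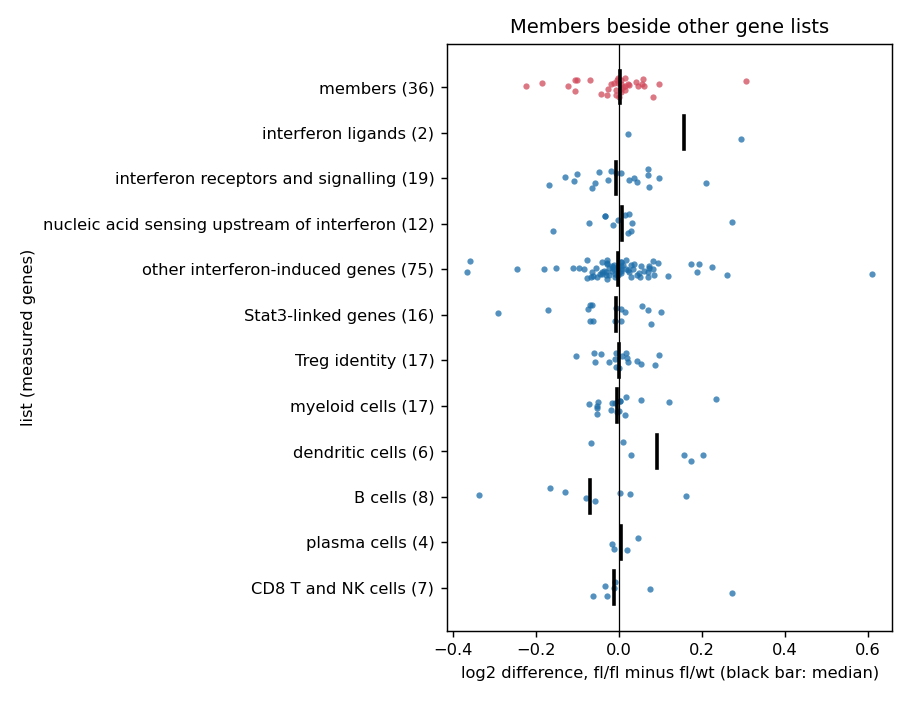
Differences of log2 signal (fl/fl minus fl/wt) of measured genes in the member list and 11 other lists; each point is a gene, black bars are medians, and numbers in brackets are measured genes. Lists of over 10 genes have medians between -0.0079 and 0.0074, and the shifted bars of ligands, dendritic cell and B cell markers rest on 2, 6 and 8 genes.

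The labelled cell type was checked against its markers. Of 18 Treg and T cell markers with a probe set, 17 were measured, between 9.12 and 14.91 in fl/wt, and Foxp3 itself was under log2 5 in both arrays (4.09 and 3.52). Il2ra (-0.10), Ikzf4 (0.096) and Cd3e (0.088) differed most among them, and the second probe set of Ikzf4 went the other way (-0.14). Dimmer probe sets differed by more, with that of Cd4 at -0.63, beside -0.061 on its brightest, 1 of Entpd1 at -0.27 and 1 of Ikzf2 at 0.21. Other cells also express interferon-induced genes, and many of their markers gave signal, those of myeloid cells at levels like the Treg markers. Of 20 myeloid markers 17 were measured, from 8.07 to 15.18 in fl/wt and from 8.06 to 15.16 in fl/fl, and Itgam, S100a8 and S100a9 were under log2 5. Summed over the list on the linear scale, the log2 level of the Treg and T cell markers was 17.48 in both arrays. For the myeloid markers it was 17.53 in fl/wt against 17.52 in fl/fl. Probe affinity differs, so neither these levels nor their sums give shares of cells. Among the myeloid markers Spi1 (0.23), Fcgr3 (0.12) and Lyz2 (-0.071) differed most. Of 12 dendritic cell markers 6 were measured, among them the member Bst2, with a summed level of 12.60 and 12.63. Siglech, a marker of the plasmacytoid cells that secrete interferon-alpha, was under log2 5, as were Flt3, Zbtb46, Xcr1, Cd209a and Cox6a2. Those measured read, in fl/wt, 11.60 (Bst2), 11.04 (Ccr9), 8.37 (Batf3), 8.27 (Klk1), 7.85 (Tcf4) and 6.81 (Itgax). The presence of plasmacytoid cells was not tested. Itgax (0.20), Batf3 (0.18) and Tcf4 (0.16) differed most, and the other probe sets of Tcf4 ran from -0.20 to 0.0081 and those of Ccr9 from -0.062 to 0.42. B cell markers were measured for 8 of 12 genes, with a summed level of 13.95 and 13.94 and with Pax5, Ebf1, Cr2 and Fcer2a under log2 5. In that list Ms4a1 (-0.34), Blk (-0.17) and Cd79a (0.16) differed most, and the second probe set of Ms4a1 went the other way (0.28). Plasma cell markers were measured for 4 of 5 genes (summed level 14.81 in both arrays on the brightest probe sets, while the 6 others of Ighm differed by -1.32 to 0.021), CD8 and NK markers for 7 of 10 (12.58 and 12.56), and red cell and platelet markers for 2 of 7 (7.49 and 7.40). The part of these cells in the resting levels was not tested, and in bulk RNA fewer cells of a type and less RNA per cell cannot be told apart.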

How the data were processed

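RNA from sorted Treg was hybridised to 1 Affymetrix array per genotype, per the labels. The authors deposited log2 signal values of 45101 probe sets. The submitters' processing notes name GCRMA, without settings or the set of arrays normalised jointly (not given in the sources used here). The log2 scale was read from the values (0.53 to 16.91). GCRMA subtracts background and pulls dim values together, so those under log2 5 carry no order.

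Probe sets paired with 1 symbol in the platform annotation were used (34945), and 64 control probe sets, 932 with several symbols and 9160 with none were left out. All 37 members found kept their symbol by Entrez identifier in RefSeq GRCm38.p6. Each gene was read by its brightest probe set. In measured genes, values under 5 were raised to 5, which makes the difference a bound. Calls were made at 1.2-fold and 1.5-fold, with no test, since 1 array per genotype has no replicate error. The number of arrays limits the precision. All measured members are named, and from each other list the 3 genes with the largest difference plus fixed receptors, kinases and factors; the ligand list has 2 measured genes, plasma cell, CD8 and NK, and red cell lists are given by counts, and others named, such as Ifnb1 and Siglech, were chosen after their values were seen. Members, lists and alternatives were chosen with earlier results of these data known. Floors, probe set choices and scalings were varied. The calculations (Python 3.11.15, pandas 2.3.3) were tested on simulated data.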

Additional observations from a re-analysis of the deposited data

How the results depend on the processing

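The alternatives were chosen with earlier results of these data known. The count of measured members (36) ran from 27, without probe sets of shared suffix, to 37, with a floor of log2 4 or with probe sets of several symbols allowed. The median difference of members (0.0022) stayed between 0.00020 and 0.012 over 9 alternatives, and the median size (0.025) between 0.023 and 0.041. Members past 1.2-fold (1, Mx1) numbered 2 with a floor of log2 4, where Mx2 enters, 2 as the median of probe sets, where Eif2ak2 reads 0.34, and 0 without shared-suffix probe sets, which leaves Mx1 with none. The difference of Mx1 ran from 0.28 to 0.32 where it had a value. Of 36 members, 16 changed sign under some alternative, none of them past 1.2-fold in the main setting, and 20 kept 1 sign. The floors could not change the differences of these members, since all were over log2 6 in both arrays. For a member with 1 probe set, the median of probe sets could not either. A kept sign is therefore no measure of a stable direction. As the median of probe sets, Herc6 was at -0.26, Samhd1 at -0.041 and Xaf1 at 0.12; these and Eif2ak2 were the only members to move by more than the SD of differences among probe sets of a gene (0.137). Centring moved the median of all genes by 0.010 and turned the split of members to 24 higher and 12 lower; the other scaling, quantile normalisation, gave 19 and 17. No paired analysis was possible because each genotype has 1 array. GCRMA itself could not be varied from the deposited values, and dim signal limits what can be said of Mx2, Oasl1 and the dimmer probe sets.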
